A study of Mus musculus with 6 samples.

Results

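The genes described here are 9 genes whose products carry out or assist DNA strand invasion in meiosis: *Dmc1*, *Mnd1*, *Psmc3ip*, *Meiob*, *Spata22*, *Brca2*, *Hsf2bp*, *Rpa1* and *Swi5*. They were taken by name from a table of 54532 mouse genes, and all 9 were found and had a mean of at least 1 FPKM (fragments scaled to gene length and library size), so that all 9 were among the 15451 genes tested. The table holds RNA-seq of STRA8+ germ cells from mouse testes, with 3 control (Ctrl) libraries labelled Cre and 3 *Srsf1* conditional knockout (cKO) libraries labelled Srsf1 knockout. SRSF1 is a serine/arginine-rich splicing factor. The age and strain of the mice, the promoter driving Cre and the way in which STRA8+ cells were obtained are not given in the sources used here, nor is it stated whether a library came from 1 animal.

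In meiosis, programmed double-strand breaks are resected to single-stranded DNA, which is coated by replication protein A (RPA) and then by recombinases, among them DMC1. The recombinase filament searches for the homologous chromosome and invades it, and this step underlies homologous pairing in spermatocytes. BRCA2 loads the recombinases, and the HOP2-MND1 heterodimer, encoded by *Psmc3ip* and *Mnd1*, stimulates their strand invasion. MEIOB and SPATA22 form a meiosis-specific complex that works together with RPA on single-stranded DNA.

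The libraries held between 14447887 and 17310353 counted fragments. Values are given in the order of replicates 1, 2 and 3 throughout. The target *Srsf1* itself measured 84.7, 45.2 and 51.9 FPKM in Ctrl against 5.08, 4.94 and 5.17 FPKM in cKO libraries, and 8.36% of the Ctrl mean was left. *Stra8* had 262, 222 and 250 FPKM in Ctrl and 242, 313 and 262 FPKM in cKO libraries, and the groups overlapped. Levels of some germ cell stage markers differed between the groups. The summed FPKM of 10 spermatid markers ran from 2583 to 8622 in Ctrl libraries, with the highest value in Ctrl replicate 2, and from 8.61 to 10.4 in cKO libraries, and all 10 were called lower. Of 8 pachytene markers 6 were called lower and 1 higher. Of 10 markers of early meiotic prophase, the stage at which the genes described here act, 2 were called lower (*Spo11* and *Rec8*) and none higher, and their summed FPKM ran from 1008 to 1388 in Ctrl and from 1049 to 1403 in cKO libraries. Of 8 markers of differentiating spermatogonia 1 was called lower, and of 8 tested markers of undifferentiated spermatogonia 1 was called lower and 1 higher. Of 21 markers of somatic cells 12 were tested and 1 was called higher. The summed FPKM of the 21 ran from 39.7 to 67.3 in Ctrl and from 45.6 to 63.9 in cKO libraries. Within them, the Sertoli cell markers summed to 39.8 FPKM in cKO replicate 1, against 15.3 to 23.1 FPKM in the other libraries. The markers of macrophages, endothelium and blood summed to 32.4 FPKM in Ctrl replicate 2, against 7.1 to 17.2 FPKM in the others. No marker was at 0 in all libraries. In these bulk samples, fewer cells of a type and less RNA per cell cannot be told apart. Any part of stage makeup in the values below was not tested.

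*Srsf1* cKO STRA8+ cells had lower levels of *Hsf2bp*, *Psmc3ip*, *Swi5* and *Rpa1*, whereas *Dmc1*, *Meiob*, *Mnd1*, *Brca2* and *Spata22* were not called. Thus 4 of the 9 genes fell and none rose. Over all genes tested, 22.2% were called lower and 11.8% higher at an adjusted p of at most 0.05 (limma with Benjamini-Hochberg adjustment over the 15451 genes). In the same 4 genes, all 3 cKO libraries lay below all 3 Ctrl libraries, and in none of the 9 did all cKO libraries lie above. Over all genes tested the cKO libraries were all below in 28.6% and all above in 21.8%. The median log2 fold change (cKO minus Ctrl, on the log2(FPKM + 1) scale) was -0.23 over the 9 genes and -0.0082 over all genes tested. Of the 4 calls, that of *Rpa1* was the least secure. It held under only 2 of 16 alternative settings, against 16 for *Hsf2bp* and 15 each for *Psmc3ip* and *Swi5*. Without Ctrl replicate 2, 4 genes were again called lower, with *Dmc1* in the place of *Rpa1*. *Dmc1* was called under no other alternative.

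**Figure D1:**
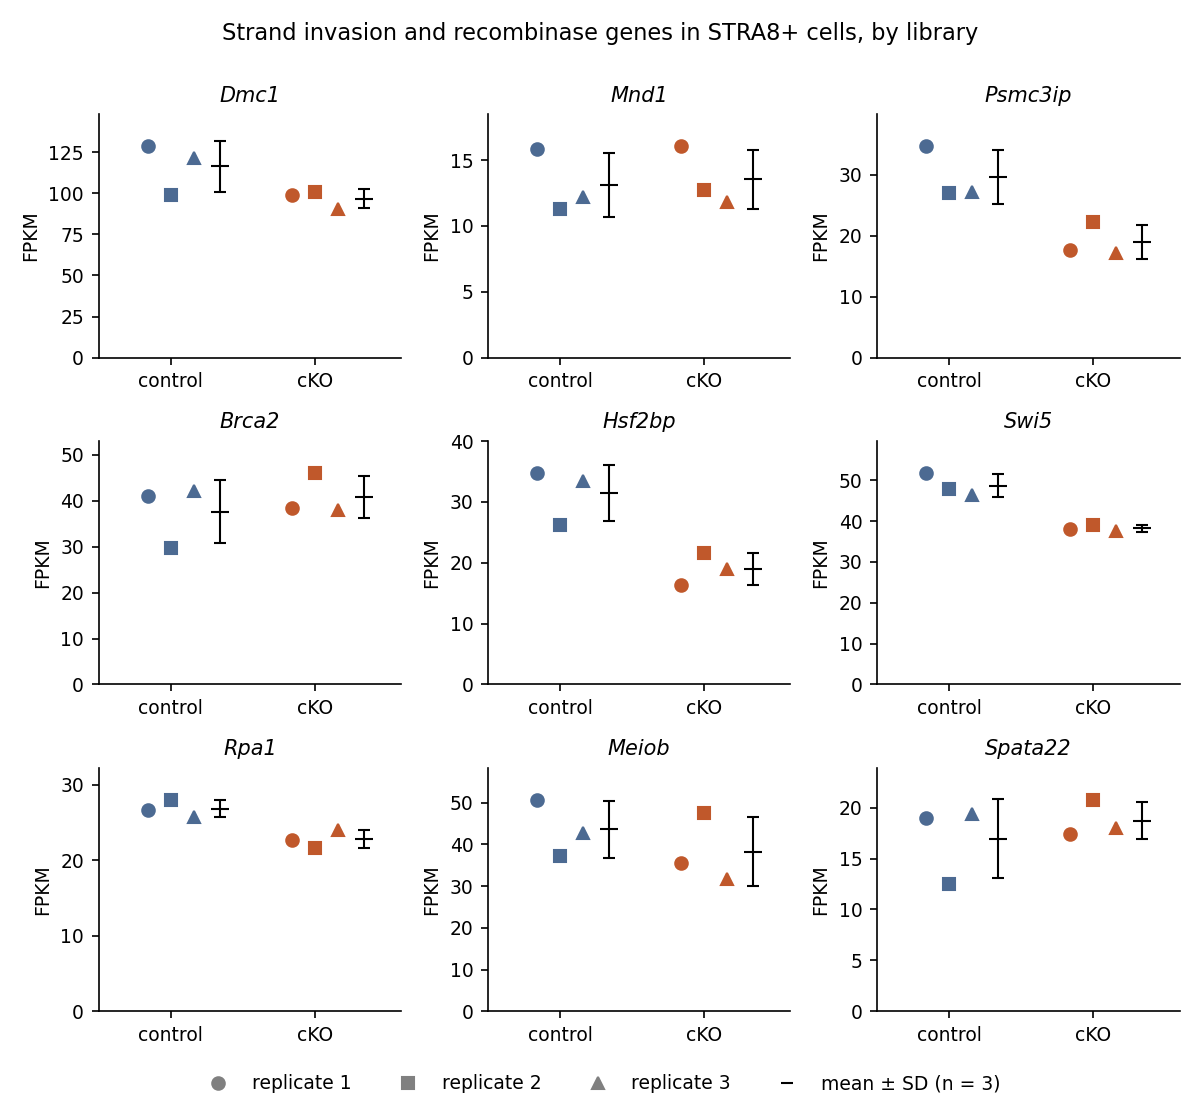
FPKM (vertical axes, linear and starting at 0) of the 9 genes in 3 Ctrl and 3 cKO libraries, each symbol being a replicate and the bar the mean ± SD (n = 3). The Ctrl and cKO symbols separate for *Psmc3ip*, *Hsf2bp*, *Swi5* and *Rpa1* and overlap for the other 5 genes.

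The sequences just upstream of the genes are shown for the 4 genes that were called lower and for *Dmc1*, the highest of the 9 in FPKM. They are RefSeq promoter windows of GRCm38.p6, from 250 bases before to 50 bases after the annotated start, written 5′ to 3′ on the strand of the gene. A window was found for 8 of the 9 genes (not *Meiob*). Capitals mark matches on either strand to the motifs searched.
Dmc1 (chr15:79605060-79605359, minus strand): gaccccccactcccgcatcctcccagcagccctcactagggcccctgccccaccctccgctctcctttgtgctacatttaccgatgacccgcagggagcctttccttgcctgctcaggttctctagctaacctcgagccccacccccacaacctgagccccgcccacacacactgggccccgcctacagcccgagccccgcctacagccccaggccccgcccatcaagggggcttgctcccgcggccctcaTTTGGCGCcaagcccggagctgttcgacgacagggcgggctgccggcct
Psmc3ip (chr11:101095386-101095685, minus strand): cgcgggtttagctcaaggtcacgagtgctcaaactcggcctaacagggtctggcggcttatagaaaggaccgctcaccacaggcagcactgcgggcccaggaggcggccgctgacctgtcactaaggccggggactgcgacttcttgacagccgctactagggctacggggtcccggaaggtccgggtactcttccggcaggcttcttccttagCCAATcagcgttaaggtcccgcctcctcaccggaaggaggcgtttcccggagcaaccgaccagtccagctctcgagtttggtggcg
Hsf2bp (chr17:32034459-32034758, minus strand): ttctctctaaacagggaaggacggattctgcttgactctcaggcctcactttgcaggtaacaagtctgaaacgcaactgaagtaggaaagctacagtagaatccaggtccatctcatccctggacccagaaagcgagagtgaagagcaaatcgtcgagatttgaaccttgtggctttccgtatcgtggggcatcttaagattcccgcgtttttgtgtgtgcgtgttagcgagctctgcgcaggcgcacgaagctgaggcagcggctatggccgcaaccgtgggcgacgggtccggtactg
Swi5 (chr2:32288020-32288319, minus strand): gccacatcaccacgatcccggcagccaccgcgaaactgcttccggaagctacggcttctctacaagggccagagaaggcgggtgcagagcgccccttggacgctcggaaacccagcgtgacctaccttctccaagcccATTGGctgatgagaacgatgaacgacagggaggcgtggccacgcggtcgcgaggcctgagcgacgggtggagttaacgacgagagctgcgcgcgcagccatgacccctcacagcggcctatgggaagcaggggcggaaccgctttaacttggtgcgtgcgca
Rpa1 (chr11:75348334-75348633, minus strand): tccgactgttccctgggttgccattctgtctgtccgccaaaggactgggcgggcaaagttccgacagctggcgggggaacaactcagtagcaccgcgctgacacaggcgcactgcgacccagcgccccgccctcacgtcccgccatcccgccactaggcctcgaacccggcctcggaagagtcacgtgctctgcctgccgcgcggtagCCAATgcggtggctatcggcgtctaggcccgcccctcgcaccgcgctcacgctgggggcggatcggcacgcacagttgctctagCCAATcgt

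The CCAAT box (CCAAT) occurred in 4 of the 8 windows, those of *Psmc3ip*, *Swi5*, *Rpa1* and *Spata22*, and in 37.4% of all 32851 promoter windows. It started 36 bases before the start site in *Psmc3ip*, 112 before it in *Swi5* (reverse strand) and 44 before it in *Spata22* (reverse strand), and in *Rpa1* it was present both 42 bases before and 43 bases after the RefSeq start. All these distances are from the RefSeq start. For *Rpa1* that start differs from the gene model of the table, whose minus-strand gene begins at base 75348324, so that the whole window and both matches lie upstream of it. The last 50 bases of the windows of *Rpa1*, *Brca2* and *Spata22* were found as an unbroken run in no GENCODE transcript. An E2F motif (TTTCCCGC or TTTGGCGC, found in 1.56% of all windows) was present in *Dmc1*, where it began at base 2 of the transcribed part, and in *Brca2*, 168 bases before the start on the reverse strand. *Brca2* also held the cAMP response element TGACGTCA 20 bases before its start, which 1.79% of all windows hold. Its shortened form TGACGTNA, which overlaps the full element, occurred in 2.93% of windows and in no other of the 8 genes. The STRA8 motif (CNCCTCAG, 7.94% of windows), the A-MYB motif (AACTGNC, 12.8%) and the centre of the NRF1 motif (CGCATGCG, 1.87%) had no match in the 8 windows. The 8 windows held 12 to 33 CpG dinucleotides each, against a median of 7 over all windows. No motif was common to the 4 genes that fell, since *Hsf2bp* held none of those searched.

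DMC1 is the recombinase specific to meiosis. *Dmc1* (ENSMUSG00000022429, chr15:79561497-79605109 of GRCm38, minus strand) had 129, 99.1 and 122 FPKM in Ctrl and 98.9, 101 and 90.4 FPKM in cKO libraries. The groups overlapped through Ctrl replicate 2, which lay among the cKO libraries. The cKO mean was 83.0% of the Ctrl mean, with a log2 fold change of -0.26 (SE 0.11, limma Benjamini-Hochberg adjusted p = 0.112) and a 95% interval of -0.52 to 0.0007. Without Ctrl replicate 2, the log2 fold change was -0.37 and *Dmc1* was called lower (limma adjusted p = 0.0159). That was the only 1 of 16 alternatives in which *Dmc1* was called. It leaves out the library that made the groups overlap. With the gene lengths of the table, *Dmc1* had the highest FPKM of the 9 genes and stood at percentile 98.3 of the Ctrl levels of all genes tested. From 3347 to 5162 fragments were counted on it in each library, so that counting error was at most 1.73%.

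The HOP2-MND1 heterodimer promotes the capture of the homologous strand. *Psmc3ip*, which encodes HOP2 (ENSMUSG00000019303, chr11:101091823-101095436, minus strand), had 34.8, 27.1 and 27.1 FPKM in Ctrl and 17.7, 22.2 and 17.2 FPKM in cKO libraries. Each cKO library was below each Ctrl library, and the cKO mean was 64.2% of the Ctrl mean. The log2 fold change was -0.61 (SE 0.14, limma adjusted p = 0.0134), and without cKO replicate 3 it was -0.55 and no longer called (adjusted p = 0.0539). *Psmc3ip* overlaps *Mlx* on the opposite strand at its 3′ end, and 85.4% of its 100-base windows occur in no other annotated gene. Whether counting used strand is not given in the sources used here. *Mlx* had 4.28 to 5.68 FPKM in Ctrl and 5.83 to 6.83 FPKM in cKO libraries, above all of its Ctrl libraries, and was not called (log2 fold change 0.36, SE 0.13, limma adjusted p = 0.0625).

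*Mnd1* (ENSMUSG00000033752, chr3:84087933-84155786, minus strand) had 15.8, 11.3 and 12.2 FPKM in Ctrl and 16.1, 12.7 and 11.8 FPKM in cKO libraries. The groups overlapped along their whole range, with a log2 fold change of 0.046 (SE 0.16, limma adjusted p = 0.842, 95% interval -0.33 to 0.42). *Mnd1* had the lowest Ctrl FPKM of the 9 genes, and its 151 to 228 fragments per library give a counting error of up to 8.14%. A retrotransposed copy, *Mnd1-ps*, shares sequence with it, so that 83.8% of the 100-base windows of *Mnd1* occur in no other gene. That copy had at most 0.0796 FPKM in any library, or 3 fragments.

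BRCA2 loads recombinases onto single-stranded DNA, and HSF2BP is its meiotic partner. *Brca2* (ENSMUSG00000041147, chr5:150522630-150570329, plus strand) had 41.1, 29.7 and 42.0 FPKM in Ctrl and 38.4, 46.1 and 37.97 FPKM in cKO libraries. The groups overlapped, and the log2 fold change was 0.13 (SE 0.15, limma adjusted p = 0.547, 95% interval -0.23 to 0.48). *Hsf2bp* (ENSMUSG00000002076, chr17:31944769-32034508, minus strand) had 34.8, 26.3 and 33.4 FPKM in Ctrl and 16.4, 21.7 and 18.9 FPKM in cKO libraries. All cKO libraries lay below all Ctrl libraries. *Hsf2bp* had the largest fall of the 9 genes, to 60.3% of the Ctrl mean (log2 fold change -0.70, SE 0.14, limma adjusted p = 0.0086). Without Ctrl replicate 3, however, *Psmc3ip* fell slightly more (-0.67 against -0.65). Over the 16 alternatives the log2 fold change of *Hsf2bp* ran from -0.82 to -0.53, and *Hsf2bp* was called lower in each.

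The partner of HSF2BP, BRME1, is encoded by *4930432K21Rik* in the table. This gene had 36.4, 29.7 and 33.3 FPKM in Ctrl and 24.8, 28.0 and 22.1 FPKM in cKO libraries. It was called lower (log2 fold change -0.39, SE 0.11, limma adjusted p = 0.0341), a call that was lost under 9 of 16 alternatives.

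**Figure D2:**
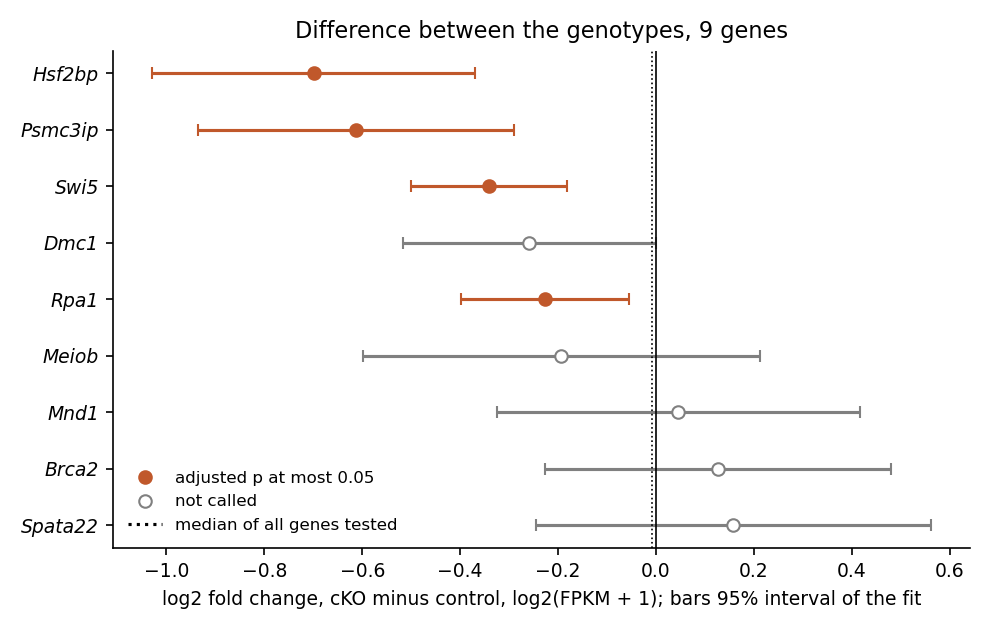
Log2 fold change of each gene (horizontal axis, cKO minus Ctrl on the log2(FPKM + 1) scale) with the 95% interval of the limma fit, filled where the adjusted p was at most 0.05. The intervals of *Hsf2bp*, *Psmc3ip*, *Swi5* and *Rpa1* lie below 0, and the dotted line marks the median of all genes tested at -0.0082.

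SWI5 forms a complex with SFR1 that stimulates the recombinases. *Swi5* (ENSMUSG00000044627, chr2:32278816-32288075, minus strand) had 51.8, 47.8 and 46.5 FPKM in Ctrl and 37.9, 39.1 and 37.6 FPKM in cKO libraries. The cKO libraries were all lower and differed little among themselves (38.2 ± 0.792 FPKM, SD, n = 3). The log2 fold change was -0.34 (SE 0.067, limma adjusted p = 0.00842), and the cKO mean was 78.5% of the Ctrl mean. With each library set to the same mean level of the early meiotic prophase markers, the log2 fold change was -0.17 (SE 0.146) and was not called (limma adjusted p = 0.428). That scaling moves the log2 fold change of every gene by the same amount, so the smaller value is not particular to *Swi5*. The 5′ end of *Swi5* overlaps *Golga2* on the opposite strand, which had 36.0 to 40.9 FPKM in Ctrl and 38.2 to 41.3 FPKM in cKO libraries. However, 100% of the 100-base windows of *Swi5* occur in no other annotated gene. The gene length in the table is 5551 bases, whereas the transcript with the longest coding sequence in GENCODE M21 has 775 bases in 5 exons, and the FPKM scale divides by the former. *Sfr1* had 127, 119 and 136 FPKM in Ctrl and 126, 157 and 146 FPKM in cKO libraries and was not called (log2 fold change 0.17, SE 0.099, limma adjusted p = 0.239).

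RPA1 is the large subunit of RPA, which protects single-stranded DNA in replication as well as in recombination. *Rpa1* (ENSMUSG00000000751, chr11:75298166-75348324, minus strand) had 26.6, 28.0 and 25.8 FPKM in Ctrl and 22.7, 21.6 and 24.0 FPKM in cKO libraries. The groups did not overlap, but the difference was small, at 85.0% of the Ctrl mean (log2 fold change -0.23, SE 0.072, limma adjusted p = 0.0495). By contrast *Rpa2*, the middle subunit, had 46.6, 52.8 and 52.6 FPKM in Ctrl and 68.1, 71.5 and 67.7 FPKM in cKO libraries and rose (log2 fold change 0.44, SE 0.073, limma adjusted p = 0.00403). *Rpa2* was called higher under all 16 alternatives. *Rpa3*, the small subunit, had 20.8, 19.1 and 23.1 FPKM in Ctrl and 23.0, 27.5 and 27.2 FPKM in cKO libraries. It was not called (log2 fold change 0.29, SE 0.10, limma adjusted p = 0.0696), and it was called higher under 3 of 16 alternatives.

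MEIOB and SPATA22 depend on each other in spermatocytes. *Meiob* (ENSMUSG00000024155, chr17:24804382-24839787, plus strand) had 50.7, 37.2 and 42.7 FPKM in Ctrl and 35.5, 47.4 and 31.7 FPKM in cKO libraries. The groups overlapped through cKO replicate 2, the other cKO libraries lying below every Ctrl library, and the log2 fold change was -0.19 (SE 0.17, limma adjusted p = 0.42, 95% interval -0.60 to 0.21). *Spata22* (ENSMUSG00000112920, chr11:73329741-73346044, plus strand) had 19.0, 12.5 and 19.4 FPKM in Ctrl and 17.4, 20.8 and 18.02 FPKM in cKO libraries. Only Ctrl replicate 2 stood apart, at 12.5 FPKM, and the log2 fold change was 0.16 (SE 0.17, limma adjusted p = 0.509, 95% interval -0.25 to 0.56). *Gm49340* overlaps *Spata22* on the same strand, and 21.2% of the 100-base windows of *Spata22* occur in no other annotated gene. *Gm49340* had at most 0.0213 FPKM in any library. How fragments in the shared exons were assigned is not given in the sources used here, so the level of *Spata22* is uncertain.

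Levels were compared between genes per length, on the FPKM scale. The order rests on the gene lengths of the table, which for *Swi5* (5551 against 775 bases) and *Rpa1* (5578 against 2942 bases) are well above those of the longest coding transcript, and other lengths can change it, the first place included. In Ctrl libraries the order of the means was *Dmc1* (116 FPKM), *Swi5* (48.7), *Meiob* (43.6), *Brca2* (37.6), *Hsf2bp* (31.5), *Psmc3ip* (29.7), *Rpa1* (26.8), *Spata22* (17.0) and *Mnd1* (13.1). Among neighbours in this order, the Ctrl ranges of *Dmc1* and *Swi5* and those of *Rpa1* and *Spata22* were separate, and those of the other neighbours overlapped. In cKO libraries the mean of *Brca2* (40.8 FPKM) was second to that of *Dmc1*, but its range overlapped those of *Meiob* and *Swi5*, and the means of *Psmc3ip* (19.03 FPKM), *Hsf2bp* (18.99 FPKM) and *Spata22* (18.74 FPKM) were nearly level. The cKO ranges of *Brca2* and *Hsf2bp* were separate, whereas their Ctrl ranges overlapped.

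Because many of these genes were low or high together in the same library, ratios of partner genes within a library were also compared. They were log2 ratios of FPKM + 1, compared with an exact two-sided permutation test, which cannot give a p below 0.1 with 3 libraries against 3, adjusted over 9 pairs, of which 8 are described. In 6 of these 8 pairs the Ctrl and cKO libraries did not overlap, each with the smallest possible exact p of 0.1 (Benjamini-Hochberg adjusted p = 0.129), so no pair passed a threshold of 0.05. Each of these 6 pairs holds at least 1 gene whose own levels did not overlap between the groups (*Psmc3ip*, *Hsf2bp*, *Swi5* or *Rpa1*). Among single genes tested, the cKO libraries were all below in 28.6% and all above in 21.8%, and the share for ratios of other gene pairs was not computed, so the count describes these pairs only.

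The FPKM of *Brca2* was 1.18, 1.13 and 1.26 times that of *Hsf2bp* in Ctrl libraries and 2.34, 2.13 and 2.01 times in cKO libraries. The mean log2 ratio was 0.24 ± 0.077 (SD, n = 3) in Ctrl and 1.07 ± 0.11 (SD, n = 3) in cKO libraries, and the difference of 0.83 was the largest of the 8 pairs. It ran from 0.77 to 0.88 when libraries were left out in turn or another pseudocount was used. The FPKM of *Mnd1* was 0.455, 0.416 and 0.451 times that of *Psmc3ip* in Ctrl and 0.907, 0.573 and 0.687 times in cKO libraries (difference of the log2 ratios 0.66). Here cKO replicate 1 stood highest, and it was the library in which *Mnd1* was nearly level with *Psmc3ip*.

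Ratios of *Rpa1* and of *Swi5* to their partners were lower in cKO libraries. *Rpa1* had 0.571, 0.531 and 0.490 times the FPKM of *Rpa2* in Ctrl libraries and 0.334, 0.302 and 0.355 times in cKO libraries, a difference of -0.67 on the log2 scale. Relative to *Rpa3*, the ratio of *Rpa1* was 1.28, 1.47 and 1.12 in Ctrl and 0.987, 0.784 and 0.882 in cKO libraries (difference -0.52). For *Swi5* and *Sfr1* the ratio was 0.408, 0.402 and 0.342 in Ctrl and 0.300, 0.250 and 0.256 in cKO libraries (difference -0.51).

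HSF2BP and BRME1 act as a complex, and both genes were called lower. The ratio of *Hsf2bp* to *4930432K21Rik* was 0.957, 0.885 and 1.00 in Ctrl and 0.661, 0.772 and 0.855 in cKO libraries (difference -0.30).

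In the remaining pairs the groups overlapped. The FPKM of *Meiob* was 2.67, 2.98 and 2.21 times that of *Spata22* in Ctrl and 2.04, 2.28 and 1.76 times in cKO libraries (difference -0.35, exact permutation p = 0.2, adjusted 0.225). *Meiob* had 1.91, 1.33 and 1.66 times the FPKM of *Rpa1* in Ctrl and 1.56, 2.20 and 1.32 times in cKO libraries, with a difference of 0.033 (exact permutation p = 1, the same after adjustment).

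**Figure D3:**
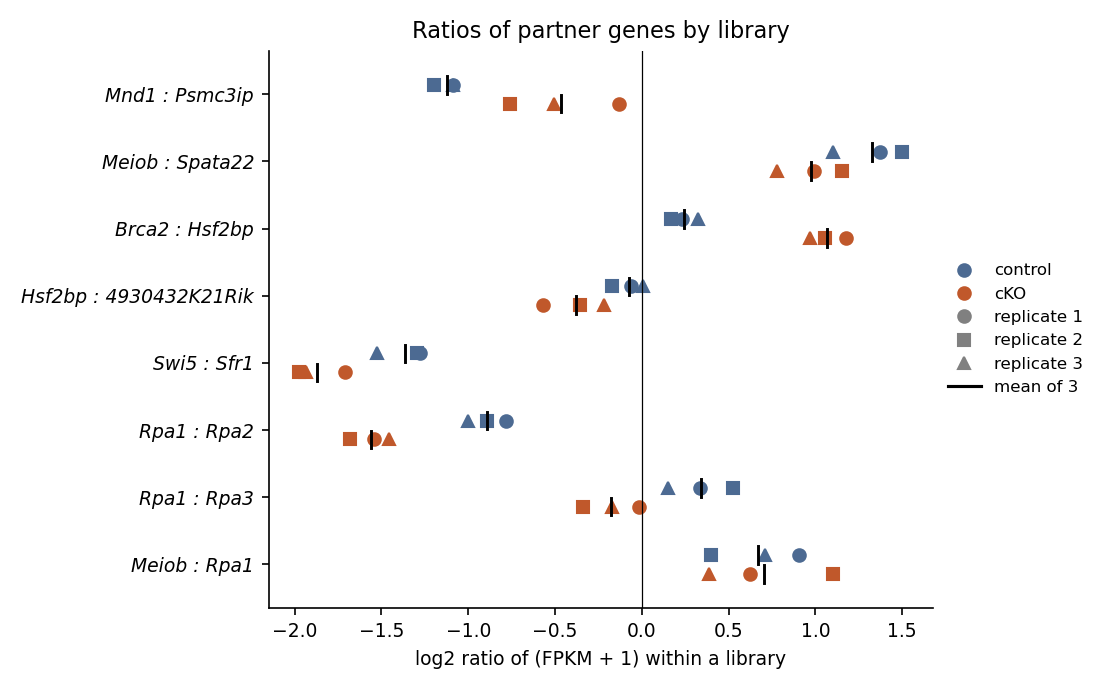
Log2 ratio of FPKM + 1 (horizontal axis) of 8 pairs of partner genes in each library, with the mean of 3 libraries as a bar. The Ctrl and cKO libraries are apart in 6 pairs, each holding a gene whose own levels did not overlap, with *Brca2* to *Hsf2bp* the widest of those drawn, and overlap for *Meiob* to *Spata22* and *Meiob* to *Rpa1*.

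Further genes of the pathway were taken from 3 lists holding 38 genes, all of which were tested. Among them 5 fell and 2 rose, beside 22.2% and 11.8% of all genes tested, and their median log2 fold change was -0.036. Of the 24 recombinases, their paralogs and mediators, 3 fell and none rose. Beside *4930432K21Rik* they included *Spidr*, which encodes a scaffold protein of DNA repair, with 6.97, 5.67 and 6.05 FPKM in Ctrl and 4.24, 5.23 and 4.12 FPKM in cKO libraries (log2 fold change -0.39, SE 0.12, limma adjusted p = 0.0475). The most abundant genes of the 3 lists, by their mean in Ctrl libraries, were *Sfr1*, *Rpa2* and *Zswim7*, a member of the Shu complex that was not called (48.7, 54.5 and 48.3 FPKM in Ctrl, 37.8, 46.4 and 47.5 FPKM in cKO libraries), although its groups did not overlap.

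Of the 6 partners in single-stranded DNA binding, 2 fell and 1 rose, the latter being *Rpa2*. *Nabp2*, which encodes the single-stranded DNA-binding protein SSB1, had 6.68, 4.79 and 5.30 FPKM in Ctrl and 3.20, 3.19 and 2.41 FPKM in cKO libraries (log2 fold change -0.74, SE 0.15, limma adjusted p = 0.0092). *Rpain*, which encodes an RPA-interacting protein, had 39.8, 33.0 and 43.3 FPKM in Ctrl and 24.4, 31.2 and 27.3 FPKM in cKO libraries (log2 fold change -0.47, SE 0.13, limma adjusted p = 0.0295). Of 8 genes of break end processing none fell, and *Atm*, the kinase activated by double-strand breaks, rose. *Atm* had 34.8, 28.9 and 36.3 FPKM in Ctrl and 50.8, 57.5 and 44.4 FPKM in cKO libraries (log2 fold change 0.60, SE 0.12, limma adjusted p = 0.0104). The calls of *Atm* and *Rpa2* were kept under all 16 alternatives. The call of *Nabp2* was lost under 2 of 15, that of *Rpain* under 8 and that of *Spidr* under 9 of 16.

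**Figure D4:**
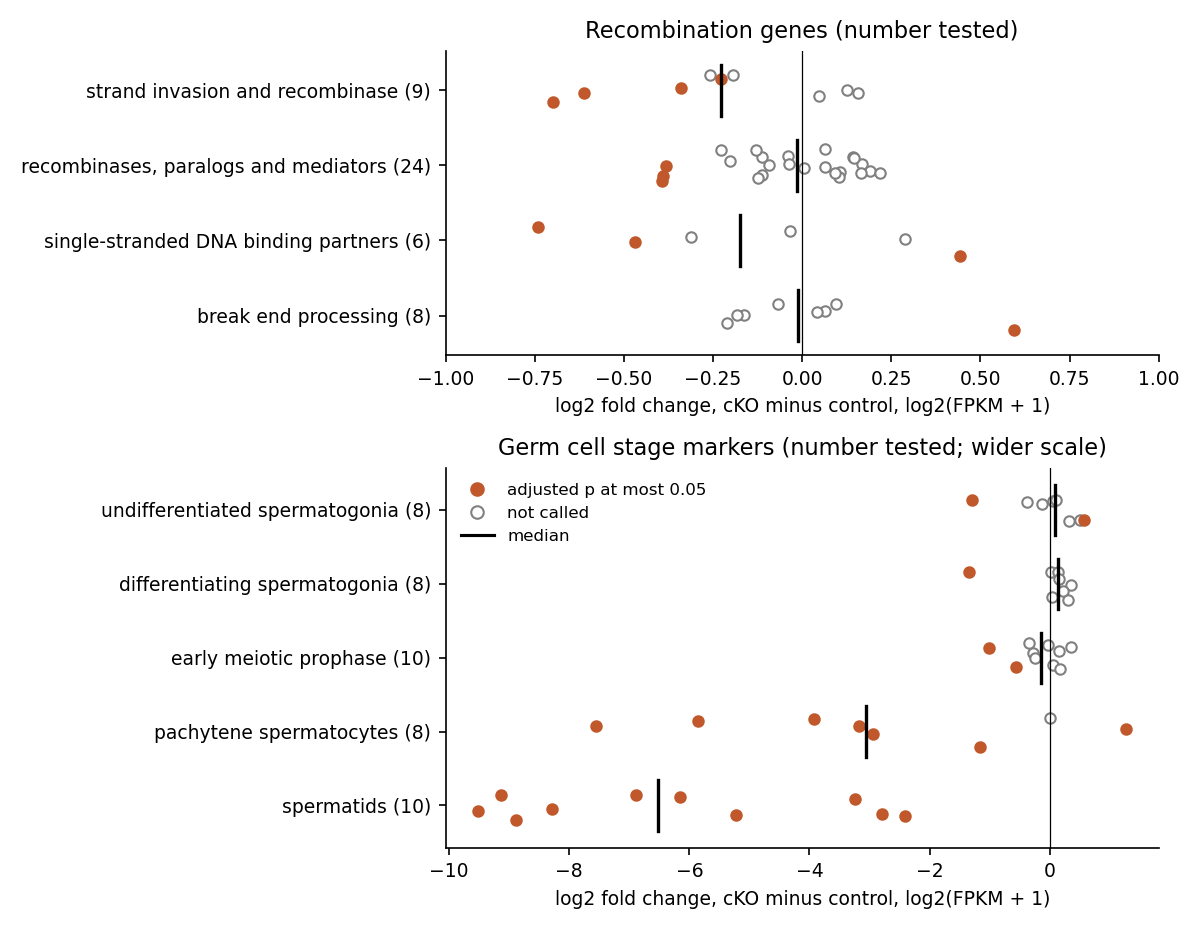
Log2 fold change (horizontal axes, cKO minus Ctrl on the log2(FPKM + 1) scale) of each tested gene of the recombination lists and of the germ cell stage markers, the latter on a wider scale, filled where the adjusted p was at most 0.05 and with the median as a bar. The recombination genes lie within 1 of 0, whereas the median of the pachytene markers was -3.06 and that of the spermatid markers -6.52.

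The protein-coding genes whose pattern over the 6 libraries was most like that of *Hsf2bp*, by Pearson correlation of log2(FPKM + 1), were *Cog6* (r = 0.999), *Dpep3* (r = 0.998) and *Pik3r3* (r = 0.997), and 324 genes had an r above 0.95. These points share their libraries, so the value describes likeness only. *Cog6*, a subunit of a Golgi tethering complex, had 24.8 to 29.6 FPKM in Ctrl and 18.2 to 22.0 FPKM in cKO libraries, and *Dpep3*, which encodes a dipeptidase, had 255 to 331 and 171 to 219 FPKM. *Pik3r3*, a regulatory subunit of phosphoinositide 3-kinase, had 31.1 to 36.0 and 25.7 to 28.5 FPKM. The log2 fold change of *Spata22* was the highest of the 9 genes (0.16, SE 0.17), but that of *Brca2* (0.13, SE 0.15) lay within this error. Without Ctrl replicate 2, *Brca2* stood above *Spata22* (-0.031 against -0.035). Most alike to *Spata22* were *Fbxo5* (r = 0.984), *Depdc5* (r = 0.980) and *Rfx7* (r = 0.980), and 30 genes had an r above 0.95. None of these 3 was called.

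**Figure D5:**
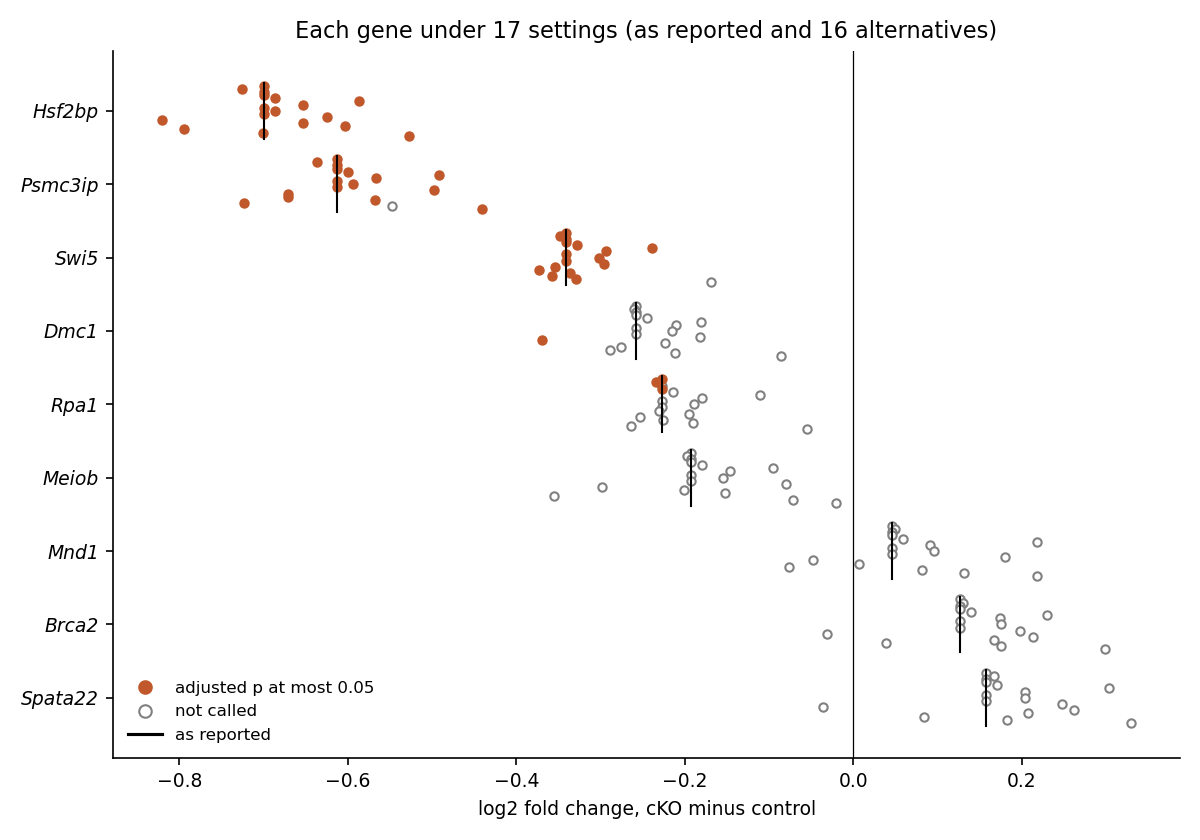
Log2 fold change (horizontal axis, cKO minus Ctrl) of each of the 9 genes as reported (bar) and under 16 alternative settings (points), filled where the adjusted p was at most 0.05. All points of *Hsf2bp* lie below 0 and are filled, those of *Rpa1* lie between -0.26 and -0.054 with few filled, and no point of *Mnd1*, *Brca2*, *Spata22* or *Meiob* is filled.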

How the data were processed

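RNA-seq of STRA8+ cells was analysed from 3 control and 3 *Srsf1* cKO libraries, grouped by their titles. The submitters' processing notes name HISAT2 2.0.5 and mm10. The counting tool, its annotation and its use of strand are not given in the sources used here. The authors deposited 1 table of FPKM with a length in bases for each gene, whose coordinates are those of GRCm38. FPKM multiplied by length fell on whole multiples of 1 step per library (100% of values above 0, within 0.01 fragment), which gave the fragments counted. The denominator of the deposited FPKM was 0.971 to 1.05 times their sum.

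Log2(FPKM + 1) was fitted by limma (version 3.58.1, R 4.3.3) with an intensity trend in eBayes, wherever the mean over libraries reached 1 FPKM, with Benjamini-Hochberg adjustment over all genes tested. Fold changes understate changes of genes with low FPKM. The labels do not say that libraries came from separate animals, so p-values measure the spread between these libraries. Genes named were the 9 genes, their partners, the most abundant and the called genes of the pathway lists, and the genes of most alike pattern. The genes and lists were chosen with earlier results of these data known. The fit was also run on simulated data in which 200 genes were changed, fewer than were called here, and no result here rests on that run. Counting errors (1 over the square root of the fragments) cover counting only. The alternatives were another pseudocount, 2 other filters, 3 other scalings, limma without the trend, limma-voom, the replicate number as a block, each library left out, and, chosen after seeing the data, levels relative to early prophase markers. Withheld items are not reported here, so 1 called gene of the pathway lists and 1 pair of partner genes are counted but not named.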

Additional observations from a re-analysis of the deposited data

How the results depend on the processing

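The call of *Hsf2bp* was kept under all 16 alternatives, and those of *Psmc3ip* and *Swi5* under 15. The call of *Rpa1* was lost under 14, with log2 fold changes from -0.26 to -0.054, and kept with a pseudocount of 0.1 and with a mean of at least 5 FPKM. *Meiob*, *Mnd1*, *Brca2* and *Spata22* were not called under any alternative, and the sign of *Mnd1*, *Brca2* and *Spata22* turned without control replicate 2 (-0.048, -0.031 and -0.035) and, for *Mnd1*, without cKO replicate 1 (-0.076). The cause was not tested.

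Relative to the early prophase markers, where the median of all genes was 0.16, 2 of the 9 genes were called lower (median -0.054), and 0 of the 38 pathway genes (median 0.14), while 1979 of all genes were called lower. Under quantile normalization, where the median of all genes was 0.22, the median was -0.11 for the 9 genes and 0.20 for the pathway genes, of which 0 were called lower and 8 higher, and 5164 of all genes were called higher. Both medians lay below that of all genes under each of these scalings. Of the pathway genes, 2 were called lower with no filter and 3 with a mean of at least 5 FPKM, where fewer genes were tested and 1950 were called lower.

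When each library was left out in turn, the 9 genes gave 2 to 4 lower calls (2 without cKO replicate 3), the pathway genes 1 to 6 lower calls (1 without control replicate 1 and without cKO replicate 3, 2 without control replicate 3 and without cKO replicate 1) and all genes 969 to 1767 higher calls (1068 without control replicate 1, 1079 without control replicate 3, 1172 without cKO replicate 1 and 969 without cKO replicate 3). The ratios of partner genes moved by less than the spread between libraries in all 63 recomputations.

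Libraries with the same replicate number did not deviate together (correlations of -0.0014, -0.11 and 0.016). Only Ctrl replicate 3 correlated best with the library of its own number. Deviations were taken from the mean of each group, so these correlations depend on each other. They cannot show whether libraries of the same number shared a litter or a preparation. With the replicate block, 1 pathway gene was called lower, 891 of all genes were called higher and 3 of the 9 genes were called lower.

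Depth limited *Mnd1* and *Spata22* the most, with at least 151 and 244 fragments per library.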

Other observations

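Among Ctrl libraries, replicate 2 had the lowest level of 7 of the 9 genes, with a median log2 difference of -0.32 from the other Ctrl libraries. The exceptions were *Rpa1*, which was highest there, and *Swi5*. Among cKO libraries, replicate 2 had the highest level of 7 of the 9 genes, with a median log2 difference of 0.22 from the other cKO libraries. The exceptions were *Rpa1*, which was lowest there, and *Mnd1*. The summed FPKM of the 9 genes was 403, 319 and 371 in Ctrl replicates 1 to 3 and 301, 332 and 288 in cKO replicates 1 to 3, so that Ctrl replicate 2 lay below cKO replicate 2. The summed FPKM of the 10 early meiotic prophase markers moved the same way by library, at 1388, 1008 and 1274 in Ctrl and 1109, 1403 and 1049 in cKO libraries, and its part in the levels of the 9 genes was not tested.

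The early meiotic prophase marker *Spo11*, which encodes the nuclease that makes meiotic breaks, had 22.4, 15.9 and 17.9 FPKM in Ctrl and 10.5, 9.27 and 6.85 FPKM in cKO libraries (log2 fold change -1.01, SE 0.175, limma adjusted p = 0.00496). *Rec8*, a meiotic cohesin subunit, had 20.7 ± 2.45 FPKM in Ctrl and 13.65 ± 1.38 FPKM in cKO libraries (SD, n = 3), with all cKO libraries below (log2 fold change -0.56, SE 0.11, limma adjusted p = 0.00892). The other 8 early meiotic prophase markers were not called, and their log2 fold changes ran in both directions, from -0.35 for *Stag3* to 0.36 for *Meioc*, whose cKO libraries all lay above its Ctrl libraries. The values were positive for *Meioc*, *Sycp1* (0.17), *Hormad1* (0.16) and *Prdm9* (0.060) and negative for *Stag3*, *Smc1b* (-0.27), *Sycp2* (-0.24) and *Sycp3* (-0.034).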
